A study of Homo sapiens with 16 samples.

Results

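Afatinib was added to paclitaxel-treated MDA-MB-231 cells, and the comparison described here sets cells given both drugs (the combination) against cells given paclitaxel alone. MDA-MB-231 is a human epithelial cell line of triple-negative breast cancer, and RNA was measured by sequencing. Libraries were taken by their labelled treatment, 4 of the combination and 4 of paclitaxel, 8 of the 16 in the series. The other 8 come from cells given afatinib alone or DMSO, the solvent, and were used for the test of whether the change with afatinib differs in the presence of paclitaxel. Every group is this same line, grown in DMEM with 10% fetal bovine serum. Doses, exposure times and the order in which the drugs were given are not given in the sources used here. Nothing in the labels says that replicates were separate cultures, and the p-values therefore reflect differences among these libraries, which may be technical. A single cell line was studied, so the values describe that line.

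Receptors of the EGFR family bind growth factors such as amphiregulin and HB-EGF, pair up and switch on their kinases, which feed the RAS-RAF-MEK-ERK and PI3K-AKT pathways. ERK in turn induces immediate-early transcription factors, growth factors and its own feedback inhibitors. Afatinib binds covalently to the kinases of EGFR, ERBB2 and ERBB4 and blocks them. MDA-MB-231 cells are known to have much EGFR, little ERBB2 and mutant p53. Paclitaxel binds β-tubulin in the microtubule wall and stabilises the polymer, so that spindles form poorly, the spindle checkpoint stays on and cells are held in mitosis or leave it without dividing.

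Library totals were 39883153 to 48108577 counts in the combination and 28366004 to 45406782 in paclitaxel. Replicates 1-2 and replicates 3-4 formed 2 sets by labelled RNA concentration, with means of 623.3 ng/µl in the combination and 387.6 ng/µl in paclitaxel for replicates 1-2, and of 142.8 ng/µl in the combination and 252.4 ng/µl in paclitaxel for replicates 3-4. The set entered each fit as a term, and values within both sets stand beside the main ones. Concentration was higher in the combination in the first set and lower in the second. Of the matched defining markers of other cell types, CD3E of T cells alone had 0 counts in all 8 libraries. PDGFRB of fibroblasts had 82 to 200 counts in the combination and 106 to 205 in paclitaxel. KDR of endothelial cells had 57 to 119 and 61 to 103. The lists of blood, fibroblast and endothelial markers each summed to between 0.527 and 4.51 CPM in the combination. In paclitaxel these sums were between 0.804 and 7.19 CPM. CPM are counts relative to library size, scaled by TMM factors except in the sums of marker lists. The 8 markers of the line itself, VIM, CD44, EGFR and AXL among them, summed to 5280 to 6960 CPM in the combination and 5380 to 6570 CPM in paclitaxel.

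Adding afatinib to paclitaxel changed many transcripts by modest amounts. With edgeR's robust quasi-likelihood F-test the comparison called 4347 of 17991 tested genes (24.2%) at a Benjamini-Hochberg adjusted p under 0.05, of which 2268 rose (12.6%) and 2079 fell (11.6%). The median size of a called change was 0.342 on the log2 scale, and 249 called genes changed more than 2-fold, 91 higher and 158 lower. Among genes with an average log2 CPM of at least 3, however, 27 changed more than 2-fold, 4 higher and 23 lower. All 4347 called genes had the same sign within both replicate sets. The test draws on the libraries of both sets, so this is not a separate check. The CPM values of the combination and paclitaxel did not overlap for 2058 genes (11.4%), 1728 of them called. Of protein-coding genes 28.9% were called, of long noncoding genes 14.6%. The median of all tested genes was −0.006, and the shares called below are read against these percentages. With a 1.5-fold change as the null the count was 80.

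**Figure D1:**
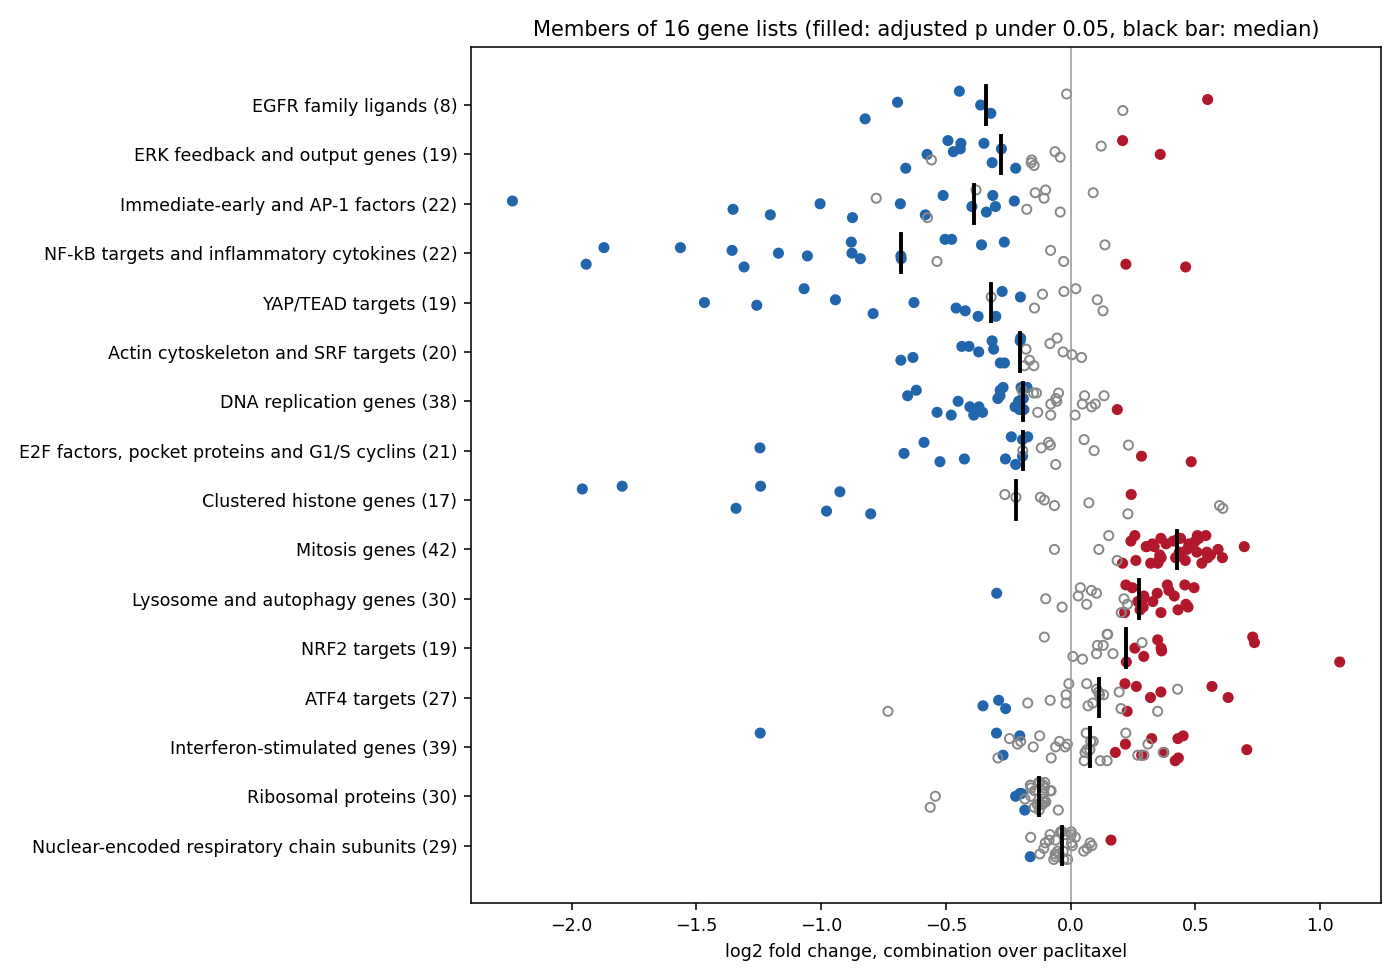
Change of the tested members of 16 gene lists with the combination over paclitaxel (x axis, log2 fold change from edgeR), 1 point per gene, filled where the adjusted p was under 0.05 (red higher, blue lower), with a black bar at the list median and the number of tested members in brackets. NF-kB targets, immediate-early factors, YAP/TEAD targets and replication genes lie mostly left of 0, with medians of −0.68, −0.39, −0.32 and −0.19, while mitosis and lysosome genes lie mostly right of it, with medians of 0.43 and 0.27.

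The receptors that afatinib binds were measured first. EGFR (ENSG00000146648, chromosome 7, 55019021 to 55211628) stood at 443, 420.2, 816 and 1023 CPM in combination replicates 1 to 4, against 442, 430.1, 713 and 803 CPM in paclitaxel replicates 1 to 4. The groups overlapped, and the log2 difference was 0.13 ± 0.09 (adjusted p = 0.291, −0.01 and 0.28 within the sets). ERBB2 (ENSG00000141736, chromosome 17, 39687914 to 39730426), the receptor amplified in HER2-positive breast cancer, had 58.2, 58.3, 80.9 and 97.1 CPM in combination replicates 1 to 4, against 56.3, 55.9, 86.4 and 84.7 CPM in paclitaxel replicates 1 to 4, a difference of 0.06 ± 0.07 (adjusted p = 0.613). ERBB3, a partner receptor with a nearly inactive kinase, was a low transcript, with 1.52, 1.68, 2.36 and 2.46 CPM in combination replicates 1 to 4, against 0.854, 0.854, 1.72 and 1.07 CPM in paclitaxel replicates 1 to 4. It rose by 0.82 ± 0.18 on the log2 scale (adjusted p = 0.00134), although the groups overlapped, and it stood at 0.90 within replicates 1-2 and 0.75 within replicates 3-4. ERBB4, the third target of afatinib, had 1 to 2 counts per library in the combination and 1 to 6 in paclitaxel, too few to test. ERRFI1, an ERK-induced inhibitor that binds the EGFR kinase, fell by 0.45 ± 0.06 (adjusted p = 1.02e-05), and CBL, the ubiquitin ligase that sends active EGFR to the lysosome, fell by 0.28 ± 0.08 (adjusted p = 0.00806). Of 12 tested receptors and receptor inhibitors these 3 were called, 1 higher and 2 lower, 25.0% against 24.2% of all genes.

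The ligands of the family fell more often. Of 8 tested ligand genes 5 fell (11.6% of all genes fell) and BTC, betacellulin, rose, with a list median of −0.34, against −0.006 over all genes. HBEGF (ENSG00000113070, chromosome 5, 140332843 to 140346631), the heparin-binding ligand of EGFR and ERBB4, had 69.0, 65.9, 89.7 and 99.1 CPM in combination replicates 1 to 4, against 109, 116, 144 and 153 CPM in paclitaxel replicates 1 to 4. Every combination library was below every paclitaxel library, and the change was −0.69 ± 0.07 (adjusted p = 3.86e-07, −0.73 and −0.65 within the sets). AREG, amphiregulin, was lower too, at 5.77, 4.36, 6.97 and 8.18 CPM in combination replicates 1 to 4, against 9.76, 8.97, 13.0 and 12.8 CPM in paclitaxel replicates 1 to 4 (−0.82 ± 0.12, adjusted p = 3.06e-05). TGFA, transforming growth factor α, fell by 0.36 ± 0.05 with little spread, at 98.9, 102, 104 and 108 CPM in combination replicates 1 to 4, against 128, 130.0, 135 and 136 CPM in paclitaxel replicates 1 to 4 (adjusted p = 8.54e-06). EREG, epiregulin, fell by 0.45 ± 0.09 (adjusted p = 0.000418), with overlapping groups, replicates 3-4 of both being higher than replicates 1-2. Afatinib alone changed HBEGF by −0.79 ± 0.07 and TGFA by −0.35 ± 0.05 against DMSO, and the difference between the changes with and without paclitaxel was 0.10 ± 0.10 for HBEGF and −0.01 ± 0.07 for TGFA, neither past the threshold.

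Genes that ERK signalling induces were lower in the combination. Of 19 feedback and output genes of ERK 10 fell and 2 rose (median −0.28). MYC (ENSG00000136997, chromosome 8, 127735434 to 127741434), the growth-promoting transcription factor, had 105, 90.7, 113 and 117 CPM in combination replicates 1 to 4, against 146, 156, 186 and 186 CPM in paclitaxel replicates 1 to 4, a change of −0.66 ± 0.09 (adjusted p = 1.78e-05) with no overlap between the groups. SPRY4, a feedback inhibitor of receptor tyrosine kinase signalling, fell by 0.58 ± 0.07. DUSP7, a phosphatase that removes phosphate from ERK, fell by 0.47 ± 0.07, and PHLDA1, a pleckstrin homology domain protein induced by growth factors, fell by 0.44 ± 0.05. Adjusted p-values of these 3 ran from 6.29e-07 (PHLDA1) to 2.07e-05 (DUSP7). Among 22 immediate-early and AP-1 factors 13 fell and 0 rose, with a median of −0.39. JUNB (ENSG00000171223, chromosome 19, 12791496 to 12793315), a subunit of the AP-1 dimer, had 33.8, 38.2, 40.5 and 40.5 CPM in combination replicates 1 to 4, against 60.9, 68.1, 79.7 and 71.7 CPM in paclitaxel replicates 1 to 4. The groups were well apart, and the change was −0.87 ± 0.10 (adjusted p = 1.60e-06, −0.84 and −0.91 within the sets). JUN fell by 0.40 ± 0.06 (adjusted p = 4.16e-05), the immediate-early gene IER5 by 0.51 ± 0.08 (adjusted p = 2.54e-05) and SRF, the factor that drives many immediate-early promoters, by 0.31 ± 0.05 (adjusted p = 0.000126). With afatinib alone 4 of the same 22 factors fell, 10.1% of all genes having fallen there. The list's median was then −0.13. The difference between both settings passed edgeR's test for 0 members, with 10 at an unadjusted p under 0.05 and 2 called by DESeq2. Of all 17991 tested genes 2256 were at that unadjusted p, and DESeq2 called 367.

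Inflammatory cytokines and other targets of NF-kB showed the largest list median. Of 22 tested members 16 fell, 72.7% against 11.6% of all genes, and 2 rose, with a median of −0.68 (−0.65 and −0.64 within the sets). CXCL8 (ENSG00000169429, chromosome 4, 73740506 to 73743716), interleukin 8, which attracts neutrophils, had 21.0, 14.3, 24.1 and 38.8 CPM in combination replicates 1 to 4, against 66.6, 79.5, 89.7 and 139 CPM in paclitaxel replicates 1 to 4. The highest combination library was well below the lowest paclitaxel library, and the change was −1.94 ± 0.29 (adjusted p = 0.000514, −2.05 and −1.85 within the sets). CXCL1, a related chemokine, had 23.4, 28.02, 33.8 and 50.1 CPM in combination replicates 1 to 4, against 63.9, 73.4, 91.8 and 116 CPM in paclitaxel replicates 1 to 4, which did not overlap either (−1.36 ± 0.14, adjusted p = 7.85e-06). Both interleukin 1 genes fell: IL1B, a low transcript, by 1.87 ± 0.17 (adjusted p = 2.22e-08) with 1.07, 1.03, 1.15 and 1.49 CPM in combination replicates 1 to 4, against 3.22, 4.14, 4.06 and 6.15 CPM in paclitaxel replicates 1 to 4, and IL1A by 1.31 ± 0.12 (adjusted p = 6.48e-08). IL11, a cytokine of the interleukin 6 family, had 89.9, 105, 73.7 and 66.2 CPM in combination replicates 1 to 4, against 176, 193, 149.8 and 174 CPM in paclitaxel replicates 1 to 4 and fell by 1.05 ± 0.09 (adjusted p = 1.37e-07). The members that rose were BIRC3, an inhibitor of apoptosis proteins family member (0.46 ± 0.07, adjusted p = 2.79e-05), and RELB, a subunit of the alternative NF-kB pathway (0.22, adjusted p = 0.00602). With afatinib alone 15 members fell and 1 rose (10.1% and 9% of all genes), with a list median of −0.62.

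Of this list 19 tested genes had an entry among the RefSeq promoter windows (GRCh38.p14, 250 bases before to 50 bases after a gene's start). On either strand 8 of them (42.1%) held GGAATTTCC, the core of many NF-kB sites. The share was 0.5% of all 27305 windows and 0.5% of windows of tested genes. The 200 bases before the starts of CXCL8 and CXCL1, the chemokines with the largest falls among abundant genes, are printed 5′ to 3′ on the strand of the gene, with the match in capitals. They lie at chr4:73740369-73740568 and chr4:73869193-73869392, both on the plus strand, and the matches begin 91 and 78 bases before the start. A match is a description of the letters, not evidence of binding. These starts are those of RefSeq and can differ from the GENCODE v29 positions given beside gene names. Of the windows printed here and further on, the RefSeq start is that of GENCODE for CXCL1, lies upstream of it for KIF11 and downstream of it for CXCL8, CTGF, KIF18A, HMMR, PCNA, FNIP1 and ASNS, and the bases printed for HMMR lie inside the gene as GENCODE places it.
CXCL8: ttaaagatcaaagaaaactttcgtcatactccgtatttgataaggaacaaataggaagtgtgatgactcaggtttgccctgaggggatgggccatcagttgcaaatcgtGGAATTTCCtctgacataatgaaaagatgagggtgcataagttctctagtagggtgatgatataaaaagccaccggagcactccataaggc
CXCL1: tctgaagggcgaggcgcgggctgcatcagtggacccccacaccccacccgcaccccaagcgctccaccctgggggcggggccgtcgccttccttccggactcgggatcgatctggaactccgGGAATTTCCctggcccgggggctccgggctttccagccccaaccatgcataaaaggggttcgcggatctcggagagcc

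TNFAIP3 (ENSG00000118503, chromosome 6, 137867188 to 137883312), which encodes the ubiquitin-editing feedback inhibitor A20, was the member of this list whose change with afatinib differed by paclitaxel. It had 31.2, 31.5, 31.1 and 34.1 CPM in combination replicates 1 to 4, against 47.6, 48.5, 52.9 and 56.3 CPM in paclitaxel replicates 1 to 4, a fall of 0.68 ± 0.07 (adjusted p = 6.42e-08) with no overlap. Without paclitaxel it averaged 29.3 ± 1.73 CPM with afatinib and 31.5 ± 2.54 CPM with DMSO (SD, n = 4 each). The difference between both changes was −0.57 ± 0.09 (adjusted p = 0.00274).

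**Figure D2:**
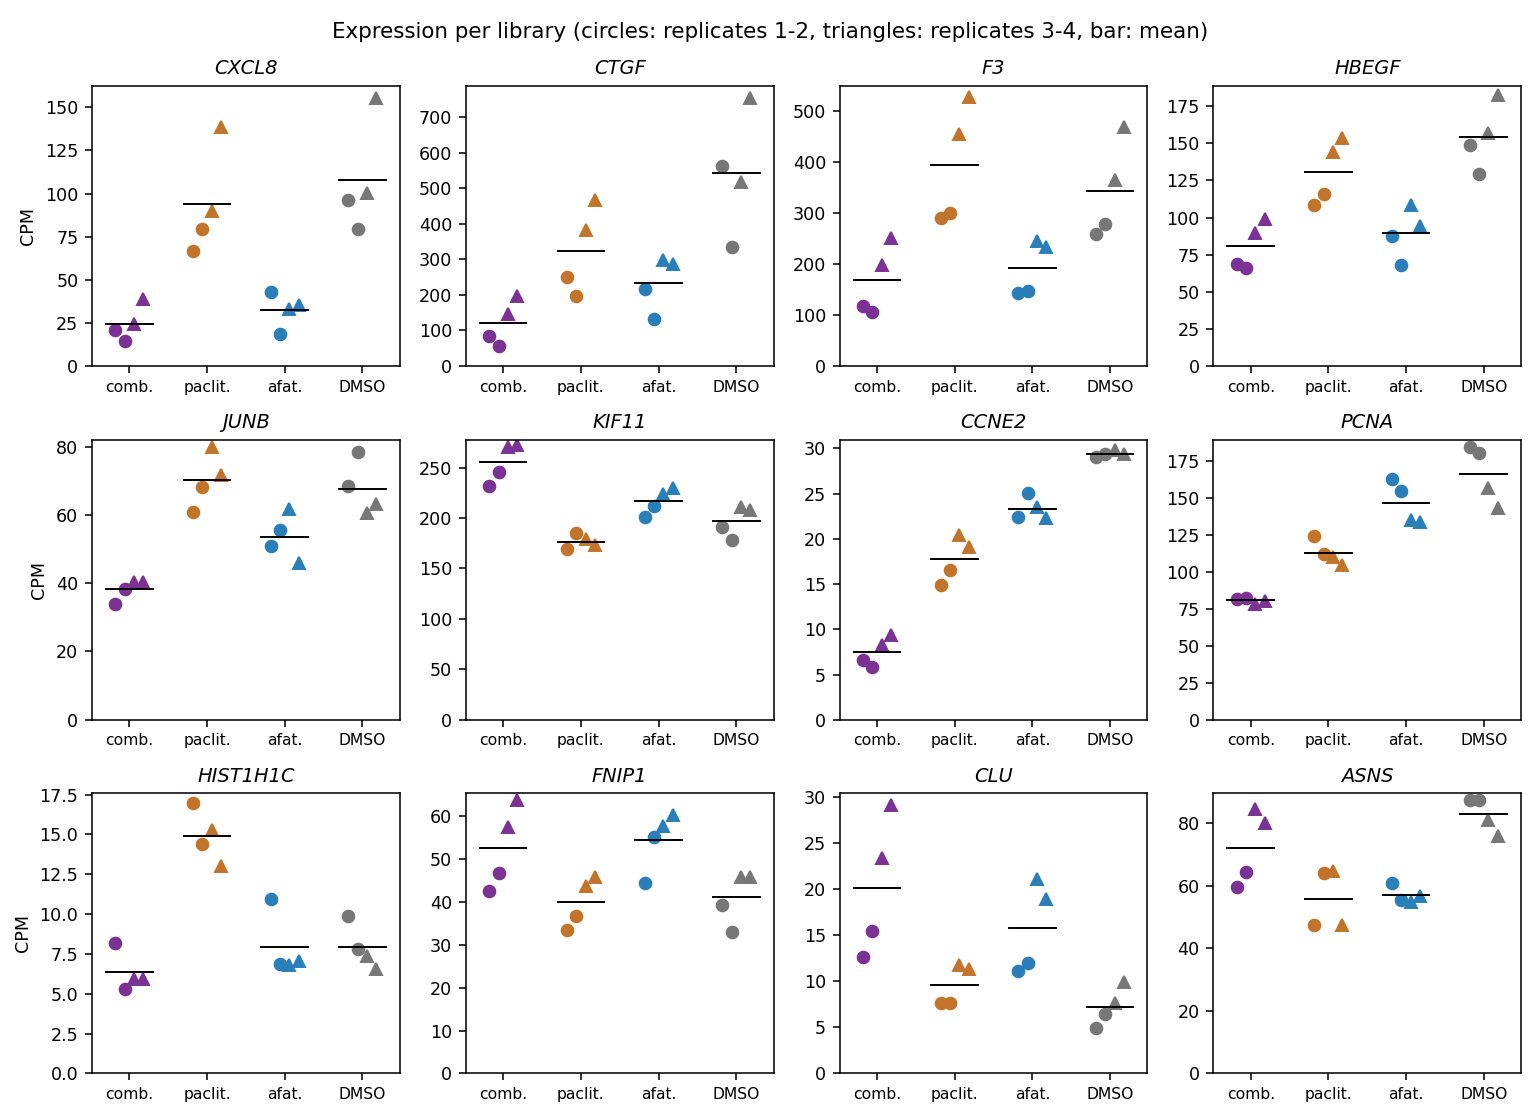
CPM of 12 genes in each library (y axis, linear and starting at 0), with columns for the combination, paclitaxel, afatinib and DMSO, circles for replicates 1-2, triangles for replicates 3-4 and a bar at the mean of 4 libraries. CXCL8, CTGF, F3, HBEGF, JUNB, CCNE2, PCNA and HIST1H1C were lower in each combination library than in each paclitaxel library, and KIF11 and CLU were higher in each, while FNIP1 and ASNS overlapped between these groups.

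YAP and TEAD are the coactivator and the DNA-binding factors on which the Hippo pathway converges. Of their 19 tested targets 12 fell (63.2%) and 0 rose, with a median of −0.32. CTGF (ENSG00000118523, chromosome 6, 131948176 to 131951373), connective tissue growth factor, had 84.9, 56.5, 148 and 196 CPM in combination replicates 1 to 4, against 249, 197, 384 and 468 CPM in paclitaxel replicates 1 to 4. The change was −1.47 ± 0.25 (adjusted p = 0.00134). It stood at −1.66 within replicates 1-2 and −1.31 within replicates 3-4, and the lowest paclitaxel library lay just above the highest combination library. F3 (ENSG00000117525, chromosome 1, 94529225 to 94541800), tissue factor, the initiator of blood clotting, had 118, 107, 199 and 250.3 CPM in combination replicates 1 to 4, against 291, 299.5, 455 and 529 CPM in paclitaxel replicates 1 to 4 and fell by 1.26 ± 0.09 (adjusted p = 1.93e-09). ANKRD1, a nuclear ankyrin repeat protein, fell by 1.07 ± 0.09 (adjusted p = 6.42e-08), NUAK2, a kinase that acts on actomyosin, by 0.94 ± 0.09 (adjusted p = 4.26e-08) and TGFB2, the ligand transforming growth factor β2, by 0.63 ± 0.07 (adjusted p = 9.66e-07). With afatinib alone 14 of the 19 fell, against 10.1% of all genes, with a median of −0.26. The difference passed edgeR's test for 0 members, with 5 at an unadjusted p under 0.05 and 1 called by DESeq2. Among all 17991 tested genes 2256 were at that unadjusted p, and DESeq2 called 367. Of 14 members with a promoter window 7 held GGAATG, the TEAD core, against 14.0% of all windows and 10.9% of windows of tested genes. The window of CTGF holds 3 matches, which begin 169, 104 and 95 bases before the start. It is printed from chr6:131951373-131951572, read on the minus strand, with the matches on either strand in capitals.
CTGF: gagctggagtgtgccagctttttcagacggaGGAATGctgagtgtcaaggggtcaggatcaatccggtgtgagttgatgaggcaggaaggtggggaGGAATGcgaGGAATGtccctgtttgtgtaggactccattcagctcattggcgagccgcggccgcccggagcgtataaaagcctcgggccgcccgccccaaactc

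Genes of the actin cytoskeleton fell in 11 of 20 cases and rose in 0 (median −0.20). ACTG1, γ-actin, among the most abundant transcripts, had 4137, 3656, 3682 and 3802 CPM in combination replicates 1 to 4, against 6551, 5923, 5821 and 5424 CPM in paclitaxel replicates 1 to 4, a fall of 0.63 ± 0.06 (adjusted p = 1.63e-07). ACTB, β-actin, often taken as a constant reference gene, fell by 0.41 ± 0.06 (adjusted p = 4.77e-05) with no overlap. Among 18 genes of matrix proteases and the plasminogen system 7 fell and 2 rose (1 without combination replicate 4 or paclitaxel 2, 3 or 4). Their median was −0.13, with −0.34 within replicates 1-2 and 0.00 within replicates 3-4. SERPINB2, plasminogen activator inhibitor 2, had 0.950, 0.710, 1.26 and 2.25 CPM in combination replicates 1 to 4, against 5.78, 4.29, 6.35 and 7.89 CPM in paclitaxel replicates 1 to 4 and fell by 2.27 ± 0.19 (adjusted p = 1.29e-08). ADAMTS6, a secreted metalloprotease, fell by 1.29 ± 0.10 (adjusted p = 3.86e-08) and its relative ADAMTS1 by 1.25 ± 0.31 (adjusted p = 0.0137). THBS1 (ENSG00000137801, chromosome 15, 39581079 to 39599466), thrombospondin 1 of the matrix, had 398, 285, 724 and 1041 CPM in combination replicates 1 to 4, against 1092, 893, 1709.9 and 1958 CPM in paclitaxel replicates 1 to 4. The change was −1.29 ± 0.19 (adjusted p = 0.000364), and the groups overlapped across the sets but not within either set. INHBA, the activin subunit, fell by 1.15 ± 0.11 (adjusted p = 4.93e-07) and EDN1, the vasoconstrictor endothelin 1, by 1.26 ± 0.18 (adjusted p = 0.000101). Of 19 mesenchymal genes 6 fell (2 without combination replicate 2 and 3 without paclitaxel 4), among them SNAI2, the repressor of epithelial genes (−0.44 ± 0.07, adjusted p = 0.000119). Of 16 epithelial genes 5 fell and 1 rose (2 without combination replicate 4): the keratin gene KRT7 fell by 0.63 ± 0.05 (adjusted p = 1.03e-08), and JUP, which encodes the junction protein plakoglobin, rose by 0.53 ± 0.07 (adjusted p = 3.26e-06). Luminal breast markers, which this line has at low levels apart from KRT8 and KRT18, summed to 686 to 773 CPM in the combination and 845 to 949 CPM in paclitaxel.

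Mitosis genes rose together in the combination. Of 42 tested members 38 rose (90.5%, against 12.6% of all genes) and 0 fell, with a median of 0.43 (0.32 within replicates 1-2 and 0.47 within replicates 3-4). Their values did not overlap between the groups for 22 of the 42 members, against 11.4% of all genes. Called changes ran from 0.21 for CDC20, which activates the anaphase-promoting complex, to 0.70 for CENPA, the histone variant of centromeres. BUB3, MAD2L1, CDK1 and UBE2C differed by −0.06, 0.11, 0.15 and 0.19 and were not called. These changes were small: with a 1.5-fold change as the null, 0 of the 38 passed. KIF11 (ENSG00000138160, chromosome 10, 92593286 to 92655395), the kinesin that pushes spindle poles apart, had 232, 246, 270.3 and 272 CPM in combination replicates 1 to 4, against 169, 185, 179 and 173 CPM in paclitaxel replicates 1 to 4. Every combination library was above every paclitaxel library, and the rise was 0.53 ± 0.05 (adjusted p = 1.82e-07, 0.43 and 0.62 within the sets). KIF18A (ENSG00000121621, chromosome 11, 28020620 to 28108308), a kinesin that limits the length of spindle microtubules at chromosomes, had 184, 182, 189.6 and 175 CPM in combination replicates 1 to 4, against 121, 142, 121 and 112 CPM in paclitaxel replicates 1 to 4 and rose by 0.56 ± 0.06 (adjusted p = 4.76e-07). HMMR (ENSG00000072571, chromosome 5, 163460203 to 163491945), a spindle assembly factor, had 43.1, 42.4, 48.2 and 50.9 CPM in combination replicates 1 to 4, against 30.4, 31.7, 31.9 and 31.9 CPM in paclitaxel replicates 1 to 4 and rose by 0.55 ± 0.06 (adjusted p = 6.29e-07). KIF2C, a kinesin that takes microtubules apart at centromeres, rose by 0.55 ± 0.05 (adjusted p = 5.94e-08). In these bulk libraries a larger share of cells in mitosis and more of these transcripts per cell cannot be told apart.

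The windows of KIF11, KIF18A and HMMR are shown since the CHR element, TTTGAA, marks promoters of late cell cycle genes. It was present on either strand in 23 of 35 mitosis genes with a window (65.7%), against 15.4% of all windows and 10.0% of windows of tested genes. The capitals mark it in the 200 bases before each start. The match begins 28 bases before the start of KIF11 (chr10:92592930-92593129, plus strand), 10 bases before that of KIF18A (chr11:28108157-28108356, minus strand) and 28 and 22 bases before that of HMMR (chr5:163460432-163460631, plus strand).
KIF11: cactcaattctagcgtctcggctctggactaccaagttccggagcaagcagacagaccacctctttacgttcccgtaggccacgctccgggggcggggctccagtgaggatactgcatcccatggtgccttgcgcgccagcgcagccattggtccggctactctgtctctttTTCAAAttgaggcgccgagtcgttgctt
KIF18A: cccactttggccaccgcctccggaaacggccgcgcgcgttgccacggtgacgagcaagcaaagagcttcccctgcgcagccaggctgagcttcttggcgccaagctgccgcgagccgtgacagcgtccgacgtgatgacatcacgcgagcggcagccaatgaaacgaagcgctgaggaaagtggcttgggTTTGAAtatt
HMMR: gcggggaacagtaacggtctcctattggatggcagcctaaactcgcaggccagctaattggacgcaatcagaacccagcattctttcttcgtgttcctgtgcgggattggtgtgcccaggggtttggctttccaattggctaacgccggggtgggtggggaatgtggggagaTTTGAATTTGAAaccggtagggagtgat

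With afatinib alone 2 of the 42 mitosis genes rose over DMSO and 0 fell, with a median of 0.05. Of all genes 9% rose there and 10.1% fell. The difference between the change with and without paclitaxel was positive and past the threshold for 18 members and negative for 0, against 0.389% positive among all genes. It was 0.49 ± 0.07 for KIF2C (adjusted p = 0.00168), 0.39 ± 0.08 for KIF11 (0.0159), 0.38 ± 0.09 for HMMR (0.0378) and 0.37 ± 0.09 for KIF18A (0.0459). KIF11 averaged 216 ± 12.7 CPM with afatinib and 197 ± 15.3 CPM with DMSO (SD, n = 4 each). The call of KIF2C was made in all 16 fits that leave out a library, that of KIF11 was lost without paclitaxel replicate 4 (adjusted p = 0.0658), that of HMMR in 11 fits (0.0526 to 0.118) and that of KIF18A in 12 (0.0543 to 0.142). Both HMMR and KIF18A stayed called without combination replicate 4, DMSO 2, DMSO 3 or paclitaxel 2, and HMMR also without afatinib 4. The count of 18 depended on single libraries. It was 5 without afatinib replicate 1, 4 without afatinib 3, 11 without afatinib 4, 6 without combination 2, 4 without combination 3, 7 without DMSO 4, 4 without paclitaxel 1, 29 without paclitaxel 2, 11 without paclitaxel 3 and 3 without paclitaxel 4. It was 27 with the replicate number as a block, 27 with DESeq2 and 31 with no filter on low counts. With no term for the replicate set it was 0.

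Genes of DNA replication and of entry into S phase moved the other way. Of 38 replication genes 22 fell (57.9%) and 1 rose, with a median of −0.19. The count of falls was 13 without combination replicate 2, and that of rises was 2 without combination 2 and 0 without combination 1 or 3 or paclitaxel 1, 2 or 4. CDC6 (ENSG00000094804, chromosome 17, 40287633 to 40304657), which loads the replicative helicase, had 53.5, 48.7, 51.9 and 58.9 CPM in combination replicates 1 to 4, against 86.9, 77.1, 86.0 and 85.0 CPM in paclitaxel replicates 1 to 4 and fell by 0.65 ± 0.06 (adjusted p = 9.10e-08). PCNA (ENSG00000132646, chromosome 20, 5114953 to 5126626), the sliding clamp of DNA polymerases, had 81.7, 82.2, 78.1 and 80.5 CPM in combination replicates 1 to 4, against 124, 112, 109.7 and 105 CPM in paclitaxel replicates 1 to 4. The combination libraries lay close together and below all paclitaxel libraries, and the change was −0.48 ± 0.06 (adjusted p = 1.31e-06, −0.52 and −0.43 within the sets). MCM5, a subunit of the helicase, fell by 0.62 ± 0.08 (adjusted p = 5.30e-06) and GINS2, which joins it when it becomes active, by 0.53 ± 0.07 (adjusted p = 6.24e-06). Among 21 E2F factors, pocket proteins and G1/S cyclins 11 fell and 2 rose (median −0.19), with 1 rise without combination replicate 2 or paclitaxel 4. CCNE2 (ENSG00000175305), cyclin E2, which drives the G1 to S transition, had 6.55, 5.86, 8.30 and 9.36 CPM in combination replicates 1 to 4, against 14.95, 16.6, 20.4 and 19.1 CPM in paclitaxel replicates 1 to 4. It fell by 1.25 ± 0.10 (adjusted p = 4.45e-09), the largest fall in the list, with groups far apart. E2F1, the activator of replication genes, had 39.8, 36.5, 34.5 and 37.0 CPM in combination replicates 1 to 4, against 59.4, 50.2, 54.4 and 57.9 CPM in paclitaxel replicates 1 to 4 and fell by 0.59 ± 0.06 (adjusted p = 3.86e-07). The kinase gene CDK6 fell by 0.52 ± 0.07 (adjusted p = 1.62e-05) and the phosphatase gene CDC25A by 0.43 ± 0.06 (adjusted p = 1.79e-05).

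Without paclitaxel CCNE2 averaged 23.3 ± 1.28 CPM with afatinib and 29.4 ± 0.278 CPM with DMSO, and E2F1 102 ± 5.73 CPM with afatinib and 106 ± 10.1 CPM with DMSO (SD, n = 4 each). The changes with and without paclitaxel differed by −0.91 ± 0.13 for CCNE2 (adjusted p = 0.000994), −0.54 ± 0.09 for E2F1 (0.00274) and −0.45 ± 0.10 for GINS2 (0.0313). The calls of CCNE2 and E2F1 were made in all 16 fits that leave out a library, and that of GINS2 was lost in 10 (0.0507 to 0.091), each of those without afatinib replicate 1, 2 or 3, combination 2 or 3, DMSO 1 or 4, or paclitaxel 1, 3 or 4. Of 5 tested cyclin kinase inhibitors 3 rose and 1 fell. CDKN2C, p18, an inhibitor of CDK4 and CDK6, had 63.4, 71.4, 59.1 and 53.7 CPM in combination replicates 1 to 4, against 41.7, 42.1, 39.5 and 34.1 CPM in paclitaxel replicates 1 to 4 and rose by 0.65 ± 0.06 (adjusted p = 3.71e-08). CDKN1B, p27, rose by 0.33 ± 0.07 (adjusted p = 0.00152) and the CDK-associated phosphatase gene CDKN3 by 0.32 ± 0.06 (adjusted p = 0.000597). CDKN1A, p21, fell by 0.22 ± 0.08 (adjusted p = 0.0365), a call lost without combination replicate 1 (adjusted p = 0.127), combination 2 (0.126), paclitaxel 3 (0.202) or paclitaxel 4 (0.0636). Of the replication genes with a window 10 of 34 (29.4%) held TTTCCCGC, an E2F site, on either strand. The share was 1.7% of all windows and 2.5% of windows of tested genes. PCNA is shown as the clamp common to replication and repair, with the match in capitals 59 bases before the start (chr20:5126623-5126822, minus strand).
PCNA: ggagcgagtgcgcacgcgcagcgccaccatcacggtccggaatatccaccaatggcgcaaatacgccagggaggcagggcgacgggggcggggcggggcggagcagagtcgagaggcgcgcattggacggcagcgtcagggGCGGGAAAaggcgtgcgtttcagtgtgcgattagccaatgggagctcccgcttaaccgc

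Clustered histone genes, most of whose transcripts carry no poly(A) tail in dividing cells, fell in 7 of 17 cases and rose in 1 (median −0.22, −0.07 within replicates 1-2 and −0.46 within replicates 3-4). HIST1H1C (ENSG00000187837, chromosome 6, 26055787 to 26056428), linker histone H1.2, had 8.22, 5.30, 5.92 and 5.92 CPM in combination replicates 1 to 4, against 17.0, 14.4, 15.3 and 13.0 CPM in paclitaxel replicates 1 to 4. The paclitaxel libraries were all above the combination libraries, and the fall was 1.24 ± 0.13 (adjusted p = 8.39e-07). HIST2H2BE, an H2B gene, had 2.87, 2.17, 2.28 and 2.67 CPM in combination replicates 1 to 4, against 7.26, 8.31, 10.2 and 8.78 CPM in paclitaxel replicates 1 to 4 and fell by 1.80 ± 0.18 (adjusted p = 3.12e-07). HIST1H2AC fell by 1.34 ± 0.15 (adjusted p = 1.01e-06) and HIST1H2BK by 0.92 ± 0.09 (adjusted p = 3.86e-08). HIST1H2BK averaged 10.9 ± 1.35 CPM in the combination and 20.7 ± 2.47 CPM in paclitaxel, and in cells without paclitaxel 7.26 ± 1.20 CPM with afatinib and 6.61 ± 1.28 CPM with DMSO (SD, n = 4 each). The difference between the changes was −1.24 ± 0.19 for HIST1H1C, −1.40 ± 0.29 for HIST2H2BE, −1.66 ± 0.23 for HIST1H2AC and −1.05 ± 0.13 for HIST1H2BK, with adjusted p-values of 0.00274, 0.028, 0.000994 and 0.000101. That of HIST2H2BE was lost without afatinib replicate 1 or 2, combination 2 or 3, DMSO 4 or paclitaxel 4 (0.052 to 0.0701), and the other calls were made in all 16 fits that leave out a library. Histone genes are near-identical copies of each other in part, so reads can be divided between them, and the labels do not state how RNA was selected.

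Lysosome and autophagy genes, many of them targets of the factors TFEB and TFE3, rose in 19 of 30 cases (63.3%) and fell in 1, with a median of 0.27 (0.18 and 0.36 within the sets). FLCN, folliculin, which controls TFEB and TFE3 through mTORC1, had 166, 172, 175 and 186 CPM in combination replicates 1 to 4, against 121, 121, 131 and 146 CPM in paclitaxel replicates 1 to 4 and rose by 0.43 ± 0.06 (adjusted p = 4.32e-06). Its partner FNIP1 (ENSG00000217128, chromosome 5, 131641714 to 131797063) had 42.4, 46.6, 57.5 and 63.7 CPM in combination replicates 1 to 4, against 33.4, 36.6, 43.6 and 45.9 CPM in paclitaxel replicates 1 to 4. The groups overlapped across the sets but not within either, and the rise was 0.39 ± 0.07 (adjusted p = 0.000169, 0.35 and 0.44 within the sets). SQSTM1, the autophagy receptor p62, rose by 0.39 ± 0.07 (adjusted p = 0.000108) with no overlap. With afatinib alone 10 of the 30 rose and 1 fell (median 0.14), against 9% and 10.1% of all genes. The difference passed for 0 members with edgeR and 0 with DESeq2. At an unadjusted p under 0.05 there were 4 members, against 2256 of all 17991 tested genes. Of 22 members with a window 7 (31.8%) held CACGTG, the core of the CLEAR element of lysosomal genes. The share was 7.4% of all windows and 9.9% of windows of tested genes. FNIP1 is shown with both matches in capitals, which begin 175 and 94 bases before the start (chr5:131797018-131797217, minus strand).
FNIP1: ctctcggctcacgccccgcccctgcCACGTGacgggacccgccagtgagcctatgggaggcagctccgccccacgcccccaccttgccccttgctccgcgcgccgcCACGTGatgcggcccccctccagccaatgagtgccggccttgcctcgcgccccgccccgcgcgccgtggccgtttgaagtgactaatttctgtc

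Targets of NRF2, the factor of the antioxidant response, rose in 9 of 19 cases and fell in 0 (median 0.22). HMOX1 (ENSG00000100292, chromosome 22, 35380361 to 35394214), haem oxygenase 1, had 67.2, 69.2, 58.5 and 72.4 CPM in combination replicates 1 to 4, against 46.0, 34.8, 39.2 and 41.3 CPM in paclitaxel replicates 1 to 4 and rose by 0.73 ± 0.10 (adjusted p = 2.74e-05). PIR, the iron-binding protein pirin, rose by 0.74 ± 0.09 (adjusted p = 2.59e-06), TXNRD1, thioredoxin reductase, by 0.36 ± 0.07 (adjusted p = 0.000215) and GCLM, a subunit of the first enzyme of glutathione synthesis, by 0.29 ± 0.06 (adjusted p = 0.000719). The same number of members, 9, rose with afatinib alone, where 9% of all genes rose, with a list median of 0.21.

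Apart from mitochondrial transcripts, the rises of abundant genes reached about 2-fold. CLU (ENSG00000120885), the secreted chaperone clusterin, had 12.7, 15.5, 23.3 and 29.2 CPM in combination replicates 1 to 4, against 7.69, 7.67, 11.7 and 11.4 CPM in paclitaxel replicates 1 to 4 and rose by 1.04 ± 0.10 (adjusted p = 8.70e-08, 0.88 and 1.18 within the sets), each combination library above each paclitaxel library. TRIM16L, a partial copy of TRIM16 that can share reads with it, had 123, 161, 103 and 97.9 CPM in combination replicates 1 to 4, against 59.9, 73.4, 55.8 and 55.4 CPM in paclitaxel replicates 1 to 4 (0.98 ± 0.09, adjusted p = 5.94e-08). ALPK1, the kinase that senses bacterial ADP-heptose, rose by 0.93 ± 0.09 (adjusted p = 4.71e-08) and MEGF6, a protein with EGF-like domains, by 0.92 ± 0.10 (adjusted p = 8.47e-07). UCA1 (ENSG00000214049, chromosome 19, 15828206 to 15836326), a long noncoding RNA of epithelial cancers, had 341, 361, 192 and 173 CPM in combination replicates 1 to 4, against 188, 179.5, 103 and 107 CPM in paclitaxel replicates 1 to 4. Both groups were higher in replicates 1-2, and the rise of 0.87 ± 0.06 (adjusted p = 1.69e-09) was alike within the sets, at 0.93 and 0.80. NEURL1B, a ubiquitin ligase of Notch ligands, rose by 0.85 ± 0.17 (adjusted p = 0.00156), CD22, a sialic acid-binding lectin known from B cells, by 0.85 ± 0.08 (adjusted p = 7.52e-08) and SEL1L3 by 0.84 ± 0.11 (adjusted p = 1.44e-05). Among the largest falls TRIM25 (ENSG00000121060, chromosome 17, 56836387 to 56914080), a ubiquitin ligase of antiviral signalling, had 71.0 to 94.0 CPM in the combination libraries, against 189 to 209.8 CPM in the paclitaxel libraries, and fell by 1.24 ± 0.08 (adjusted p = 1.10e-10). It moved against most called members of its list: of 39 interferon-stimulated genes 10 rose and 4 fell (35.9% called, against 24.2%; 2 fell without combination replicate 1, combination 3 or paclitaxel 4), with IFIH1, the double-stranded RNA sensor MDA5, at 0.71 ± 0.09 (adjusted p = 1.80e-06), IFI35 at 0.45 ± 0.07 and PARP14 at 0.43 ± 0.08 (adjusted p = 5.91e-05 and 0.000211).

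Targets of ATF4, which responds to lack of amino acids, rose in 7 of 27 cases and fell in 3, a median of 0.11. Without combination replicate 4 or paclitaxel 4 the count of rises was 4, and without combination 2 that of falls was 1. With afatinib alone these targets fell in 10 cases and rose in 2 (median −0.20), against 10.1% and 9% of all genes. ASNS (ENSG00000070669, chromosome 7, 97852118 to 97872542), asparagine synthetase, had 59.6, 64.4, 84.6 and 80.0 CPM in combination replicates 1 to 4, against 47.3, 64.0, 64.6 and 47.5 CPM in paclitaxel replicates 1 to 4. The groups overlapped, and the difference of 0.36 ± 0.12 (adjusted p = 0.0306, 0.15 and 0.55 within the sets) lost its call without combination replicate 3 (adjusted p = 0.0972), combination 4 (0.112), paclitaxel 1 (0.0849) or paclitaxel 4 (0.0902). It averaged 56.9 ± 2.73 CPM with afatinib and 83.0 ± 5.64 CPM with DMSO (SD, n = 4 each), and the difference between the changes was 0.91 ± 0.16 (adjusted p = 0.0183, and 0.0504 without afatinib replicate 3). CHAC1, which degrades glutathione, had 5.25, 6.49, 5.42 and 6.20 CPM in combination replicates 1 to 4, against 3.78, 3.52, 4.43 and 4.15 CPM in paclitaxel replicates 1 to 4 and rose by 0.57 ± 0.12 (adjusted p = 0.00143), while it fell by 0.45 ± 0.11 with afatinib alone (adjusted p = 0.00467). SLC6A9, a glycine transporter, rose by 0.63 ± 0.10 (adjusted p = 6.65e-05) and SLC1A4, a transporter of neutral amino acids on the list of serine and one-carbon genes, by 0.52 ± 0.12 (adjusted p = 0.00231). The changes with and without paclitaxel differed by 1.02 ± 0.17 for CHAC1 (adjusted p = 0.00274), 0.90 ± 0.16 for SLC1A4 (0.00773) and 0.73 ± 0.14 for SLC6A9 (0.0152, and 0.055 without paclitaxel replicate 4). Such a difference passed for 5 ATF4 targets, all positive, against 0.389% positive among all genes. It passed for 9 with the replicate number as a block, for 10 with DESeq2 and for 11 with no filter on low counts. With no term for the replicate set it passed for 0. Over all genes the positive differences numbered 233, 200, 283 and 0 under these settings, in the same order. The count of 5 was 2 without afatinib replicate 3 or paclitaxel 4, and 3 without afatinib 2, afatinib 4, combination 3, DMSO 1 or paclitaxel 1. The transporter gene SLC7A5 fell both in the combination (−0.29 ± 0.07, adjusted p = 0.00186) and with afatinib alone (−0.50 ± 0.07, adjusted p = 6.59e-06). Against 3.7% of all windows and 1.7% of windows of tested genes, 6 of 26 members with a window (23.1%) held TGATGNAA, the C/EBP-ATF site, on either strand. That of ASNS begins 68 bases before the start (chr7:97872409-97872608, minus strand).
ASNS: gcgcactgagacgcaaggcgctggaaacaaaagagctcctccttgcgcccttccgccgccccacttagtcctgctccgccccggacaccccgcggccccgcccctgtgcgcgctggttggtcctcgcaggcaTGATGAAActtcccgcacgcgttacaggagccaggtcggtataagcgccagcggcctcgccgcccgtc

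**Figure D3:**
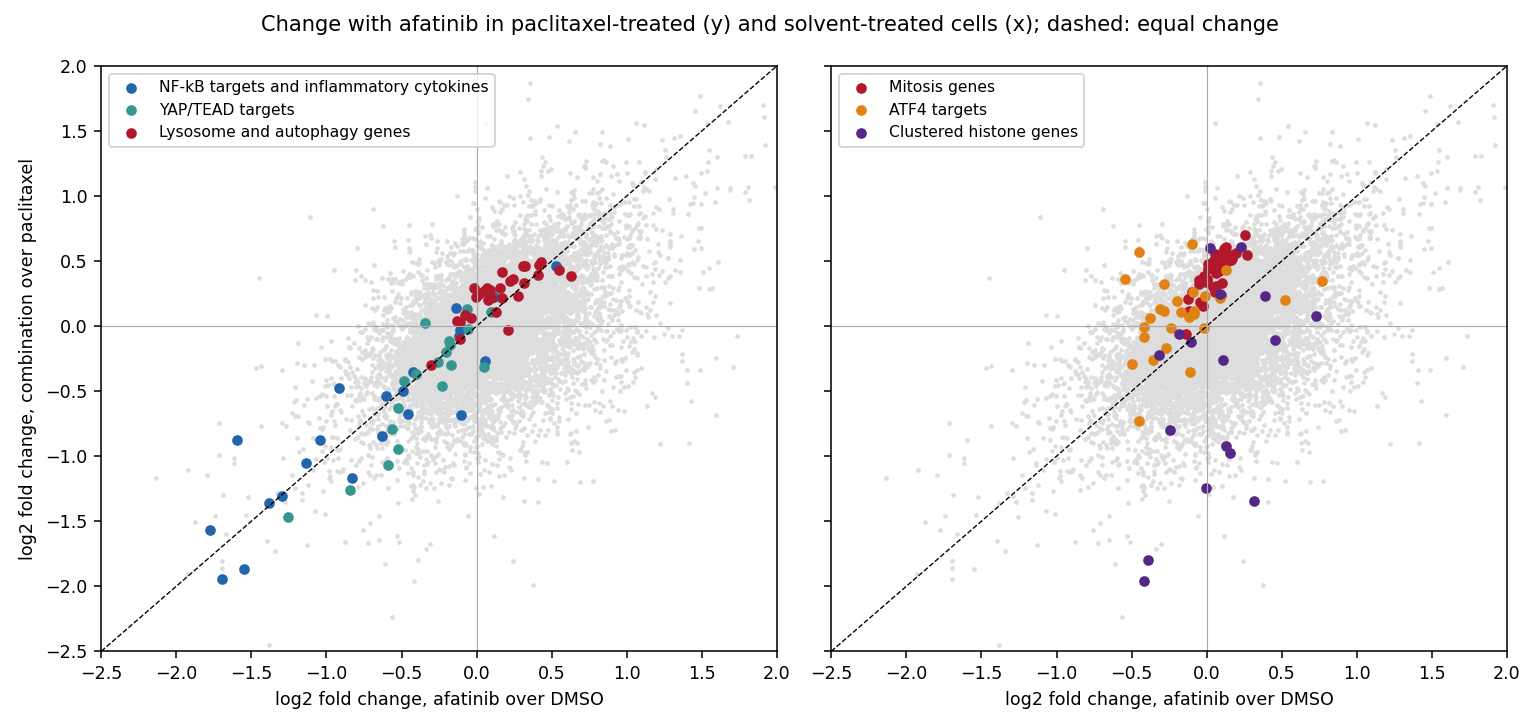
Log2 fold change of every tested gene (grey) with afatinib in paclitaxel-treated cells (y axis, combination over paclitaxel) and in solvent-treated cells (x axis, afatinib over DMSO), the dashed line marking equal change. NF-kB targets, YAP/TEAD targets and lysosome genes (left panel) scatter about the dashed line, whereas mitosis genes (right panel) lie above it at x values near 0, most ATF4 targets lie above it and several histone genes lie below it.

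Afatinib was also tested for genes whose response differs by paclitaxel over the whole table. The difference of the changes passed for 159 genes (0.884%), 70 positive (0.389%) and 89 negative (0.495%). With the replicate number as a block in the fit the count was 503, 233 positive and 270 negative. With DESeq2 it was 367, 200 positive and 167 negative, and with no filter on low counts 479, 283 positive and 196 negative. Without DMSO replicate 3 it was 196, 131 positive and 65 negative, so the balance of signs depended on the method and on single libraries. Of the 4347 genes called in the combination over paclitaxel, 1950 (44.9%) were called with the same sign in afatinib over DMSO, and of the 3432 genes called there (19.1%, 1620 higher and 1812 lower) the 1950 are 56.8%. Opposite calls were made for 11 genes. Among abundant genes the largest positive differences beside ASNS, SLC1A4, SLC6A9 and KIF2C were 0.59 ± 0.13 for ULBP2, a ligand of the NKG2D receptor, and 0.52 ± 0.12 for SNCAIP, synphilin 1. ULBP2 averaged 24.2 ± 8.44 CPM in the combination and 24.7 ± 7.19 CPM in paclitaxel, but 16.7 ± 5.12 CPM with afatinib and 25.7 ± 7.97 CPM with DMSO (SD, n = 4 each). The largest negative ones beside HIST1H1C, HIST1H2BK and CCNE2 were −0.86 ± 0.14 for PPAP2B, a lipid phosphatase, −0.83 ± 0.14 for FHDC1, a formin, and −0.77 ± 0.16 for C5orf45. PPAP2B fell by 0.36 ± 0.10 in the combination (adjusted p = 0.0097, and 0.0539 without combination replicate 2) and rose by 0.50 ± 0.10 with afatinib alone (adjusted p = 0.000843). Some of these calls were lost without single libraries. That of SNCAIP (adjusted p = 0.0386) was lost without afatinib replicate 1, 2 or 3, combination 2 or 3, DMSO 4, or paclitaxel 1, 3 or 4 (0.0586 to 0.108). That of C5orf45 (0.028) was lost without afatinib replicate 2, 3 or 4, combination 2 or 3, DMSO 1 or paclitaxel 4 (0.0507 to 0.0717), and that of ULBP2 (0.03) without afatinib 2 or 4, DMSO 4, or paclitaxel 1 or 4 (0.0563 to 0.0701). The count of 159 was 76, 65, 47 and 84 without afatinib replicates 1, 2, 3 and 4, 52 and 45 without combination replicates 2 and 3, 98 and 64 without DMSO replicates 1 and 4, and 47, 279 and 34 without paclitaxel replicates 1, 2 and 4.

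FOXO factors are held out of the nucleus by PI3K-AKT signalling, which lies downstream of EGFR. Of 18 genes of the FOXO and PI3K feedback list 3 rose and 6 fell in the combination (median −0.03), whereas with afatinib alone 6 rose and 0 fell. Of all genes 9% rose and 10.1% fell with afatinib alone. CITED2, a transcriptional coregulator, had 55.8, 43.9, 52.97 and 54.3 CPM in combination replicates 1 to 4, against 93.4, 74.0, 88.3 and 85.3 CPM in paclitaxel replicates 1 to 4 and fell by 0.72 ± 0.10 (adjusted p = 2.05e-05), IRS1, the insulin receptor adaptor, fell by 0.46 ± 0.06 (adjusted p = 3.70e-06) and BCL6, a transcriptional repressor, by 0.63 ± 0.10 (adjusted p = 2.69e-05). The difference between the changes was negative and past the threshold for 4 members, against 0.495% negative among all genes. It was −0.66 ± 0.14 for CITED2 (adjusted p = 0.03) and −0.61 ± 0.13 for BCL6 (0.0313). Both calls were lost without afatinib replicate 1, 2 or 3, DMSO 4 or paclitaxel 3 or 4, that of CITED2 also without combination 3, DMSO 3 or paclitaxel 1, and that of BCL6 also without combination 1 or 2 or DMSO 1 (adjusted p from 0.0512 to 0.0885). That count was 0 without afatinib replicate 1, 2 or 3, DMSO 4, paclitaxel 3 or paclitaxel 4, 1 without any of combination 1, 2 and 3, DMSO 3 or paclitaxel 1, and 2 without DMSO 1. 

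Apoptosis genes changed in both directions. Of 21 genes of the BCL2 family and the inhibitors of apoptosis 8 fell and 2 rose (47.6% called), with 5 falls without paclitaxel replicate 1 or 3. BCL2L11 (ENSG00000153094, chromosome 2, 111119378 to 111168447), which encodes the BH3-only killer protein BIM, had 9.81, 10.7, 12.7 and 12.9 CPM in combination replicates 1 to 4, against 15.3, 14.3, 16.5 and 19.0 CPM in paclitaxel replicates 1 to 4 and fell by 0.49 ± 0.08 (adjusted p = 0.000119). With afatinib alone it differed by 0.03 ± 0.08 (adjusted p = 0.857), and the difference between the changes was −0.52 ± 0.12 (adjusted p = 0.036). That call was made without combination replicate 4, DMSO 2, DMSO 3, paclitaxel 2 or paclitaxel 3 and lost without any of the other 11 libraries (adjusted p = 0.0532 to 0.117). MCL1, a short-lived survival protein, fell by 0.28 ± 0.06 (adjusted p = 0.00249). BIRC5, survivin, which is also on the mitosis list, rose by 0.30 ± 0.06 (adjusted p = 0.00097). Of 16 death receptors and caspases 4 rose and 2 fell (1 without combination replicate 1, combination 2 or paclitaxel 2), with TNFRSF21, death receptor 6, at −0.46 ± 0.06 (adjusted p = 1.26e-05). Of 24 p53 targets 4 rose and 6 fell (41.7% called, median −0.02, with 2 rises without combination replicate 3): the kinase gene PLK2 fell by 0.56 ± 0.08 (adjusted p = 2.49e-05) and PLK3 by 0.58 ± 0.09 (adjusted p = 5.87e-05). Of 7 drug efflux transporters ABCC3, which exports organic anions, rose by 0.67 ± 0.11 (adjusted p = 7.74e-05), and the other members were not called. The list had 3 falls without combination replicate 4, 1 fall without paclitaxel 3, and 2 rises without combination 3 or paclitaxel 2.

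Tubulins are the protein family that paclitaxel binds. Of 14 tubulin genes 2 rose and 3 fell (35.7% called, median −0.10). The count of rises was 1 without any 1 of the libraries other than paclitaxel replicate 2, and that of falls was 1 without combination 1, combination 2 or paclitaxel 1. TUBB, the main β-tubulin gene, had 16.4, 16.8, 18.3 and 17.2 CPM in combination replicates 1 to 4, against 21.5, 19.8, 22.6 and 19.6 CPM in paclitaxel replicates 1 to 4 (−0.28 ± 0.08, adjusted p = 0.0074), but its reads are divided over 5 gene identifiers, so its level is uncertain. TUBD1, δ-tubulin of centrioles, rose by 0.52 ± 0.10 (adjusted p = 0.000481). Of 27 microtubule-binding and tubulin-regulating genes 9 rose and 4 fell (48.1%). MAP1A, a microtubule-associated protein known from neurons, had 5.91, 7.14, 10.7 and 10.9 CPM in combination replicates 1 to 4, against 3.46, 3.84, 5.15 and 5.33 CPM in paclitaxel replicates 1 to 4 and rose by 0.95 ± 0.10 (adjusted p = 4.19e-07), and the plus-end protein genes CLASP1 and CKAP5 rose by 0.38 ± 0.05 and 0.37 ± 0.06 (adjusted p = 6.08e-06 and 9.59e-05).

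Cholesterol synthesis genes rose in 8 of 21 cases and fell in 0 (median 0.16). The count of rises was 3 without combination replicate 2, 4 without combination 4 or paclitaxel 4 and 5 without paclitaxel 3, and there was 1 fall without combination 4. Fatty acid synthesis genes rose in 5 of 13 and fell in 0 (1 without combination replicate 4), led by ACSS2, acetyl-CoA synthetase (0.53 ± 0.06, adjusted p = 6.26e-07). Of 28 hypoxia and glycolysis genes 5 rose and 3 fell (28.6% called), near the share of all genes, with 1 fall without combination replicate 1 or paclitaxel 4. Of 20 homologous recombination and Fanconi genes 4 rose and 2 fell (30.0%). Of 15 cytosolic heat shock genes 5 rose and 0 fell, with HSP90AA1 at 0.31 ± 0.06 (adjusted p = 0.000487). That count was 3 without combination replicate 2 and 1 without combination 3, paclitaxel 1 or paclitaxel 4. Of 17 chaperones of the endoplasmic reticulum 2 rose and 2 fell, the rises being 0 to 4 over the fits that leave out a library (0 without combination replicate 4, paclitaxel 3 or paclitaxel 4, 1 without combination 2 or paclitaxel 1, and 4 without paclitaxel 2). Of 30 ribosomal protein genes 4 fell and 0 rose (13.3% called), with values below 0 in all 30 and a median of −0.13. The 4 falls became 1 without combination replicate 2 or paclitaxel 1, 2 without paclitaxel 3 or 4 and 14 without paclitaxel 2. Of 29 nuclear-encoded respiratory chain subunits 1 rose and 1 fell (6.90%). The rise was lost without combination replicate 3, paclitaxel 1 or paclitaxel 2, and the fall without combination 2 or 3 or paclitaxel 1, 3 or 4, while 2 fell without paclitaxel 2.

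Of 13 mRNAs of the mitochondrial genome 3 rose and 1 fell, with a median of 0.18, −0.08 within replicates 1-2 and 0.43 within replicates 3-4. The rises numbered 1 without combination replicate 1 and 0 without combination 3 or 4 or paclitaxel 1 or 3, and the fall was lost without combination 1, 2 or 3 or paclitaxel 1, 2 or 4. Mitochondrial transcripts took 3.48, 2.94, 7.78 and 9.71% of the counts in the combination and 3.22, 3.43, 5.03 and 8.09% in paclitaxel, a difference in means of 1.04 percentage points (two-sided exact permutation test within sets, p = 0.556, the smallest p of 36 arrangements being 0.0556). The largest rises of all abundant genes were nevertheless at 2 mitochondrial tRNA genes encoded, like MT-ND6, on the light strand. Counts of such short transcripts depend on how RNA was selected, which the labels do not state. They are therefore not taken as levels of mature tRNA. MT-TN, the tRNA for asparagine (ENSG00000210135, mitochondrial genome, 5657 to 5729), had 11.6, 14.5, 28.4 and 28.9 CPM in combination replicates 1 to 4, against 3.89, 5.38, 5.76 and 8.44 CPM in paclitaxel replicates 1 to 4 (1.77 ± 0.19, adjusted p = 9.27e-06, 1.49 and 2.03 within the sets), with no overlap. MT-TC, the tRNA for cysteine, had 14.3, 12.8, 27.3 and 32.8 CPM in combination replicates 1 to 4, against 5.19, 7.24, 8.57 and 14.8 CPM in paclitaxel replicates 1 to 4 (1.26 ± 0.17, adjusted p = 7.98e-05). MT-ND6, the mRNA of a complex I subunit, rose by 1.02 ± 0.33 (adjusted p = 0.0433), a call lost without any of combination replicates 2, 3 and 4 and paclitaxel replicates 1, 3 and 4 (adjusted p = 0.0668 to 0.120). MTND6P4 (0.99 ± 0.30, adjusted p = 0.0317) is a nuclear copy of MT-ND6 that shares its reads, so it is uncertain, and its call was lost without 5 of the 8 libraries (0.0515 to 0.0985). Gene length moved with the comparison as well: the medians were −0.0868, −0.0142, 0.0141 and 0.0372 in 4 classes of rising length. Within replicates 1-2 these medians were −0.0614, 0.00305, 0.00787 and 0.00599. Within replicates 3-4, where they rose over all classes, they were −0.115, −0.036, 0.0137 and 0.0691. Whether RNA make-up has a part in these changes was not tested.

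The change was also set against RNA concentration, which differed between the groups in opposite directions in both sets. With log2 concentration as a further term 4261 genes were called. Within replicates 1-2 alone the count was 1974, and within replicates 3-4 alone 1298. A test of whether the change differs between the sets called 0 genes with edgeR and 0 with DESeq2, with 599 genes at an unadjusted p under 0.05. CXCL8 changed by −2.05 and −1.85, KIF11 by 0.43 and 0.62, CCNE2 by −1.35 and −1.16 and CLU by 0.88 and 1.18 within the first and the second set. Without the set term 768 genes were called.

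**Figure D4:**
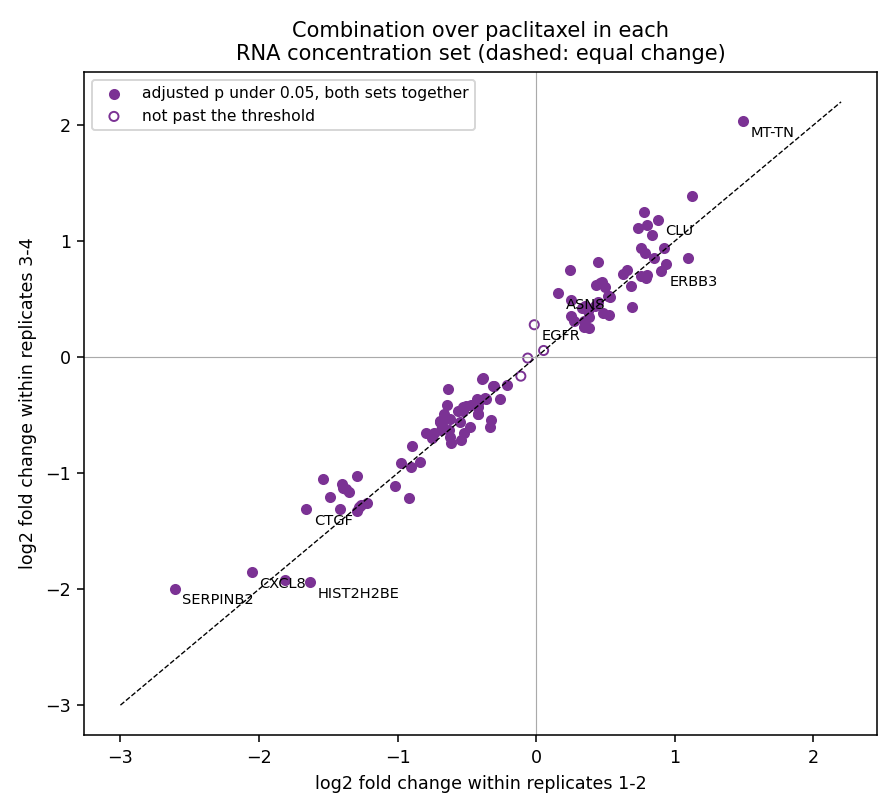
Log2 fold change of the combination over paclitaxel within replicates 1-2 (x axis) and within replicates 3-4 (y axis) for the genes given with values in the text, filled where the adjusted p over both sets was under 0.05, the dashed line marking equal change. The called genes lie in the quadrants of equal sign and near the dashed line, with CXCL8 at −2.05 and −1.85 and MT-TN at 1.49 and 2.03 toward the ends. The calls draw on both sets, and the genes named for the largest changes were chosen with equal sign within the sets.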

How the data were processed

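RNA-seq was done on 16 libraries of MDA-MB-231 cells, 4 for each of the combination, paclitaxel, afatinib and DMSO. The authors deposited raw counts per gene. They were aligned with STAR 2.7.5b and counted with featureCounts of Subread 2.0.1 on hg38, per the submitters' processing notes. A second table holds log2 CPM values that the authors corrected for RNA concentration, per the file headers, by a model not given in the sources used here, and it served as an alternative only. Another 2 numeric columns were not used.

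Counts were fitted with edgeR 4.0.16 (limma 3.58.1, R 4.3.3): TMM factors, a filter for low counts (minimum count 10, minimum total 15, redone for each design), robust quasi-likelihood fits over all 16 libraries with group and replicate set as terms, and Benjamini-Hochberg adjustment over all tested genes. Of 37864 genes 17991 were tested. Genes without a symbol (171) took 0.036 to 0.0425% of the counts in the 8 combination and paclitaxel libraries. A value after ± is the standard error of a log2 fold change unless SD is named, and the standard error is the change divided by the root of F. CPM values are scaled by TMM factors, except the sums of marker lists, which are not. The common biological coefficient of variation was 7.41%, with 11 residual degrees of freedom. A difference between the changes with and without paclitaxel was tested as an interaction contrast of the same fit. Counts were also simulated for 17991 genes, with changes placed in abundant genes only. In that simulation 98% of 1.5-fold changes and 100% of 2-fold changes were recovered. It assumed the form of the fitted model, so recovery among scarce transcripts and in real libraries was not tested. The mitochondrial share was tested by exact permutation within sets.

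The members and lists were chosen with earlier results of these data known. Named genes were the 12 largest called changes in each direction (average log2 CPM of at least 3, equal sign within the sets), for each of 43 lists the 4 members with the smallest p, EGFR, ERBB2, ERBB3, ERBB4 and TUBB, and the 6 largest called differences in each direction. BTC, RELB, CDC20, CENPA, BUB3, MAD2L1, CDK1 and UBE2C were named after their values were seen. Some genes that the rule names are not reported here. Of 822 list symbols 806 matched and 760 were tested. Positions come from GENCODE v29 and promoter windows from RefSeq (GRCh38.p14).

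Replicate numbers come from the labels. Deviations from group means of same-numbered combination and paclitaxel libraries correlated at 0.458 to 0.661 across genes (4 pairs), against 0.467 to 0.601 for other numbers of the same set. After removing the set the same-numbered pairs stood at −0.0371 to 0.076. Other numbers of the same set then stood at −0.188 to −0.121, below the same-numbered pairs, and pairs from different sets at −0.0268 to 0.159. Whether equal numbers mark a pairing was not tested. No 2 replicates agreed within sampling noise (chi-square per gene 9.56 to 380). Alternatives were DESeq2 1.42.0, RLE and upper-quartile factors, no filter, fewer libraries, a replicate block, no set term, a concentration term, fits within sets, a 1.5-fold null, voom, the deposited log2 table and leaving out each library.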

Additional observations from a re-analysis of the deposited data

Results flagged for a closer look

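Among 220 sets of 4 replicates (the combination and paclitaxel values of 110 genes given in the text) 4 held a library far from the others, where chance gives about 1 in 20. IL1A stood at 3.37 CPM in combination replicate 1, and at 4.18 to 4.27 CPM in the other combination libraries. TNFAIP3 stood at 34.1 CPM in combination replicate 4 and at 31.1 to 31.5 CPM in the others. ANKRD1 stood at 209 CPM in combination replicate 1 and at 157 to 165 CPM in the others. HMMR stood at 30.4 CPM in paclitaxel replicate 1 and at 31.7 to 31.9 CPM in the others.

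For 24 of the genes given in the text the change with afatinib differed between cells with and without paclitaxel, by the interaction test of edgeR at an adjusted p under 0.05. The differences of log2 fold changes were positive for the kinesin genes KIF2C (0.49), KIF11 (0.39) and KIF18A (0.37), for HMMR (0.38), for the amino acid genes ASNS (0.91), SLC1A4 (0.90) and SLC6A9 (0.73), for CHAC1 (1.02), and for ULBP2 (0.59) and SNCAIP (0.52). They were negative for the histone genes HIST2H2BE (−1.40), HIST1H2AC (−1.66), HIST1H1C (−1.24) and HIST1H2BK (−1.05), for the S phase entry and replication genes CCNE2 (−0.91), E2F1 (−0.54) and GINS2 (−0.45), for the regulators TNFAIP3 (−0.57), BCL2L11 (−0.52), BCL6 (−0.61) and CITED2 (−0.66), and for FHDC1 (−0.83), PPAP2B (−0.86) and C5orf45 (−0.77).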

How the results depend on the processing

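The 4347 calls of the combination over paclitaxel became 4186 to 5366 under other size factors, no filter, 8 libraries, the replicate block, a concentration term, voom or DESeq2, and 3283 on the deposited log2 table. Without the set term the count was 768, within replicates 1-2 it was 1974, within replicates 3-4 it was 1298, and against a 1.5-fold null it was 80. Leaving out single libraries gave 3324 (without combination replicate 2) to 4245 (without paclitaxel replicate 2). The 159 differences between the changes with and without paclitaxel became 479 with no filter, 503 with the replicate block, 367 with DESeq2, 34 to 279 on leaving out libraries, and 0 without the set term (643 at an unadjusted p under 0.05, edgeR). Fits within a set hold fewer libraries, and the cause of the other shifts was not tested. The difference in mitochondrial share had a two-sided exact permutation p of 0.743 over all 8 libraries without sets.

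Of 212 values of named genes that were also fitted with the replicate block, 206 kept their side of the threshold and 6 passed it newly, and DESeq2 kept 210 and added 2. Apart from the 159 differences, the block moved the count of ATF4 targets alone by over 1.5 times (9 with it and 5 without), and it ended no call of a named gene. Without the set term 118 of the 212 no longer passed. Mitosis genes that rose numbered 21 there, NF-kB targets that fell 9, replication genes that fell 9, YAP/TEAD targets that fell 5 and lysosome genes that rose 3. Against the 1.5-fold null 141 of 187 values no longer passed, and in the lists followed under this setting 5 NF-kB targets, 5 histone genes, 3 YAP/TEAD targets, 2 matrix protease genes and 1 E2F or G1/S gene still did, against 0 mitosis, lysosome or replication genes. Of the same 187 values 25 no longer passed on the log2 table. No result changed sign past the threshold under the alternatives run. Depth was 28366004 to 48108577 counts per library, so the spread between 4 libraries, and for transcripts such as ERBB4 the count itself, limits these comparisons.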
